A study of Mus musculus with 48 samples.

Results

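The libraries described here are the 24 HLA-numbered libraries of a mouse macrophage RNA-seq series of 48, divided by their IFN-γ response into 12 even-numbered libraries that responded and 12 odd-numbered libraries that did not. The members of each set were chosen by the measured levels of Cxcl9, Gbp2 and Ciita, 3 IFN-γ-induced genes, and the choice contradicts the IFNy part of the label in 12 of the 24 libraries. The even-numbered libraries carry the labels LE, PE, LE+IFNy and PE+IFNy, 3 libraries each, so 6 of the 12 are labelled without IFNy. The odd-numbered libraries carry the labels PBS, SE, IFNy and SE+IFNy, 3 libraries each, so 6 of the 12 are labelled with IFNy and showed no response.

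RAW264.7 is an established mouse macrophage line. The cells were kept for 72 h with PBS or with 1 of 3 synthetic peptides from the same stretch of the human HLA-DR β chain at 100 µg/ml, each with or without IFN-γ at 5 ng/ml, and the medium was renewed at 48 h. LE is the lupus epitope, SE the shared epitope of rheumatoid arthritis and PE a protective epitope. The remaining 24 libraries, replicates 1 to 3 of the same 8 label groups, carry letters, and in them the IFNy label and the response went together. They were not used by the rule, so they served for the tests of single genes. The study describes the libraries of a label group as biological replicates, with fewer independent experiments than libraries. The labels do not say which libraries came from separate cultures, so p-values measure the spread between these libraries.

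IFN-γ binds a cell surface receptor and signals through the kinases JAK1 and JAK2. Early genes such as Irf1 are induced through GAS elements, IRF1 with other factors then acts through ISRE elements, and later genes such as Ciita, the class II transactivator, follow. In macrophages the pathway raises antigen presentation, the guanylate-binding proteins and immunity-related GTPases that attack intracellular pathogens, and chemokines that draw T cells.

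Total counts per library were 18.2 M to 31.4 M (M for mega) in the even-numbered and 14.1 M to 42.6 M in the odd-numbered libraries. Levels are given as CPM, counts per 1 M of the TMM-scaled library size. CPM compares a gene between libraries and not different genes with each other, since transcript length is not divided out. In the even-numbered libraries 11.7% to 13.3% of counts fell on the top 10 genes, and in the odd-numbered ones 13.4% to 15.6%. Transcripts of the mitochondrial genome made up 2.91% to 3.49% of each even-numbered and 4.08% to 6.33% of each odd-numbered library, with no overlap. In the letter libraries the same share was 0.855% to 1.36% with IFNy and 1.35% to 2.18% without. The mitochondrial share was thus lower with the response, without overlap in the HLA libraries and nearly so in the letter libraries, and its part in the results was not tested.

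The label of a macrophage was checked against 18 identity genes, of which 17 had enough counts to be tested. Cd68, a lysosomal membrane protein of macrophages, ran from 889 to 1573 CPM over both sets of HLA libraries, and Marco, a scavenger receptor, was at 0 in every even-numbered library. The summed level of the 18 genes was 10066 to 22468 CPM in the even-numbered and 10388 to 16345 CPM in the odd-numbered libraries. The sums overlapped, but 6 of the 17 tested genes were over 2-fold higher in the even-numbered libraries with no overlap. By the same measure 0 were lower, and 3.12% of all tested genes were higher. The median even-minus-odd difference of the list was 0.30 on the log2 scale, against -0.33 with IFNy in the letter libraries. Of the markers of other cell types, Cd3e and Cd3g (T cells), Col3a1 and Lum (fibroblasts) and Epcam (epithelium) were at 0 in every HLA library. Epithelial markers summed to at most 0.0654 CPM and fibroblast markers to at most 1.86 CPM in any HLA library, and 7 T cell markers summed to 8.29 to 17.9 CPM. Of 6 B cell markers 1 was measurable, the immunoglobulin heavy chain gene Ighm, which ran from 72.8 to 119 CPM in the even-numbered and from 4.53 to 9.87 CPM in the odd-numbered libraries. Among these other cell types the B cell list was the one whose summed level did not overlap between the sets, and its part in the results was not tested. In bulk samples a smaller share of cells that express a gene and less RNA per cell cannot be told apart.

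The promoters of 4 genes at successive steps of the response are shown because they carry the letters that the response factors are known to bind. They run from 250 bases before to 50 bases after the transcription start in the RefSeq annotation of GRCm38.p6, 5′ to 3′ on the gene's strand, and the capitals mark the matched letters. Irf1 on the plus strand of chr11:53769764-53770063 holds a GAS sequence (TTCNNNGAA), and Gbp2 on the plus strand of chr3:142620413-142620712 holds an ISRE core (GAAANNGAA) on the reverse strand. Cxcl9 at chr5:92328030-92328329 and Cxcl10 at chr5:92348840-92349139, both on the minus strand, hold an ISRE core in the forward direction. A second Irf1 promoter in the annotation, chr11:53770223-53770522, held neither motif and is not printed.
Irf1: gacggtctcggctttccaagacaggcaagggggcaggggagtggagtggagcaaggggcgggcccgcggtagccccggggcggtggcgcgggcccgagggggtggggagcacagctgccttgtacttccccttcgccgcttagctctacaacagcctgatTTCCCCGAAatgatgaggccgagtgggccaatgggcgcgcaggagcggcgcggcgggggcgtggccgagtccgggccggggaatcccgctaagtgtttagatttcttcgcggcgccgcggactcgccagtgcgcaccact
Gbp2: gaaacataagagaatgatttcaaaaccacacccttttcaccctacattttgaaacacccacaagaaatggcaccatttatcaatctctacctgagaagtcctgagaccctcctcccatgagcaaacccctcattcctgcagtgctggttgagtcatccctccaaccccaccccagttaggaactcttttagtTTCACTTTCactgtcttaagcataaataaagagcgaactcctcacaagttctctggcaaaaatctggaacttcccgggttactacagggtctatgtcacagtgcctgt
Cxcl9: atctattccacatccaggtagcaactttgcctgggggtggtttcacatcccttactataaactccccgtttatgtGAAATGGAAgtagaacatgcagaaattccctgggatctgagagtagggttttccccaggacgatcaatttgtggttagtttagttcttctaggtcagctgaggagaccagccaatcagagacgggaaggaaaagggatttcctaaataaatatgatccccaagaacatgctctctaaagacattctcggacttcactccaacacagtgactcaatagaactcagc
Cxcl10: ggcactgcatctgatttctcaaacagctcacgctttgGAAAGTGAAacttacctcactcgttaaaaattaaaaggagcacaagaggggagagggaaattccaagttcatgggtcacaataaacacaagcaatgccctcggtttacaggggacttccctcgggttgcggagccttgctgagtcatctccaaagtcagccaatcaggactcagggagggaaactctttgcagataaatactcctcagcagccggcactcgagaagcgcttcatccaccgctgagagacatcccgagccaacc

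The match lay at -90 to -82 from the start in Irf1, at -58 to -50 in Gbp2, at -175 to -167 in Cxcl9 and at -213 to -205 in Cxcl10. Searched on both strands, the GAS letters occurred in 8.3% and the ISRE core in 8.56% of 32851 mouse promoters of this length, and either of them in 15.8%. Of 16 genes of the class I and immunoproteasome list, 13 had a promoter entry, and 6 of these (46.2%) held either motif, against 17.9% of all 27025 genes. Of the 20 response genes described next, 14 had an entry, which is under the 80% needed for a share, and none is given. A match is a description of letters and not a binding site.

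A response score was computed for each library by averaging log2(CPM + 0.5) over 20 IFN-γ response genes. Cxcl9, Gbp2 and Ciita, which chose the sets, are among them, so the even-odd gap in the score is a description. This score lay between 5.62 and 6.42 in the 12 even-numbered libraries and between 2.12 and 2.44 in the 12 odd-numbered ones. The letter libraries had 5.61 to 6.22 with IFNy and 2.05 to 2.22 without, so the even-numbered libraries overlapped the range of the treated letter libraries, and the odd-numbered ones overlapped the untreated range or stood just above it. Within the even-numbered libraries the score was higher in those labelled without IFNy, at 6.34 to 6.42 for LE and 6.18 to 6.33 for PE, than in those labelled LE+IFNy (5.62 to 5.74) and PE+IFNy (5.89 to 5.91).

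**Figure D1:**
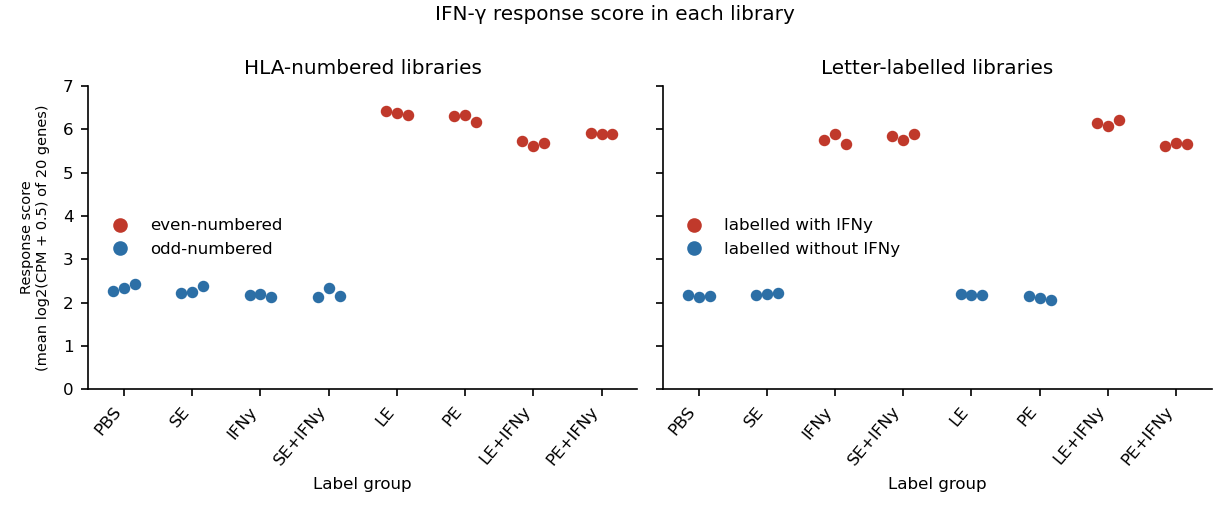
IFN-γ response score (mean log2(CPM + 0.5) of 20 genes) of each library by label group, in 1 panel for the HLA and 1 for the letter libraries. Each point is 1 library. The HLA libraries labelled LE and PE stand between 6.18 and 6.42 without an IFNy label. Those labelled IFNy and SE+IFNy stand between 2.12 and 2.33 with one. The score includes Cxcl9, Gbp2 and Ciita, which chose the HLA sets.

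The columns of the deposited count table show a related fact of the file. None of the 24 HLA columns (0 of 24) follows letter columns of its own label group. All 12 even-numbered columns follow letter columns labelled with IFNy, and all 12 odd-numbered columns follow letter columns labelled without it. The order of the columns was not used to assign any library. Whether libraries, tubes or column names differ from their labels cannot be told apart from these counts.

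Cxcl9 is a chemokine that binds CXCR3, a chemokine receptor found on T cells. Its level was 12.2 CPM in the lowest, 30.4 in the median and 123 in the highest even-numbered library. In the odd-numbered libraries Cxcl9 had 0, 0.0155 and 0.113 CPM. The threshold thus fell between 293 counts in the lowest even-numbered and 2 counts in the highest odd-numbered library, and the sets did not overlap. Since no odd-numbered library had more than 3 counts, the mean level was at least 288-fold higher in the even-numbered libraries, against a floor of 3 counts per library. In the letter libraries the same bound was at least 463-fold, and the IFNy effect passed the test (edgeR adjusted p = 1.06e-17).

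Gbp2, an interferon-induced GTPase, had 125, 281 and 611 CPM in the lowest, median and highest even-numbered library, against 0.47, 1.01 and 2.21 in the odd-numbered ones. Ciita, which switches on class II antigen presentation, had 18.2, 26.7 and 35.6 CPM against 0, 0 and 0.103, at least 185-fold higher. Both divided the libraries in the same way as Cxcl9. Within replicate numbers 4, 5 and 6 the even-minus-odd difference in log2(CPM + 0.5) was 6.14, 5.71 and 6.01 for Cxcl9, and 7.61, 7.64 and 7.22 for Gbp2, so the division was alike in each. The 3 genes chose the sets, and these values are a description.

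Across 14748 genes with enough counts, 460 (3.12%) were higher by over 2-fold in the even-numbered libraries with no overlap of the 12 and 12 values, and 193 (1.31%) were lower. The median difference over all genes was -0.02 on the log2 scale. These counts follow from a division made on the response itself and are read as a description, and they came to 1113 in all at 1.5-fold. Without replicate 6, where fewer values must not overlap, the lower genes numbered 305. With IFNy, 1883 of 13096 genes (14.4%) were called higher and 1461 (11.2%) lower in the letter libraries, where called means an adjusted p under 0.05 in edgeR and a fold change over 1.5. Of the 445 genes higher in the even-numbered libraries that were tested in both fits, 438 (98.4%) were called higher in the letter libraries, where 14.2% (1805) of the 12754 shared genes were. Of the 191 lower genes, 184 (96.3%) were called lower, where 10.9% (1386) of shared genes were, and none of either group (0) was called the opposite way. Conversely, the even-odd description held 24.3% of the genes called higher and 13.3% of those called lower in the letter libraries. The description asked for over 2-fold and no overlap, and the calls for an adjusted p and over 1.5-fold. These shares thus compare unlike rules and do not count genes without a difference. Across genes the log2 differences in both sets had a Pearson r of 0.91 and a Spearman rho of 0.79. Genes are not independent replicates.

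**Figure D2:**
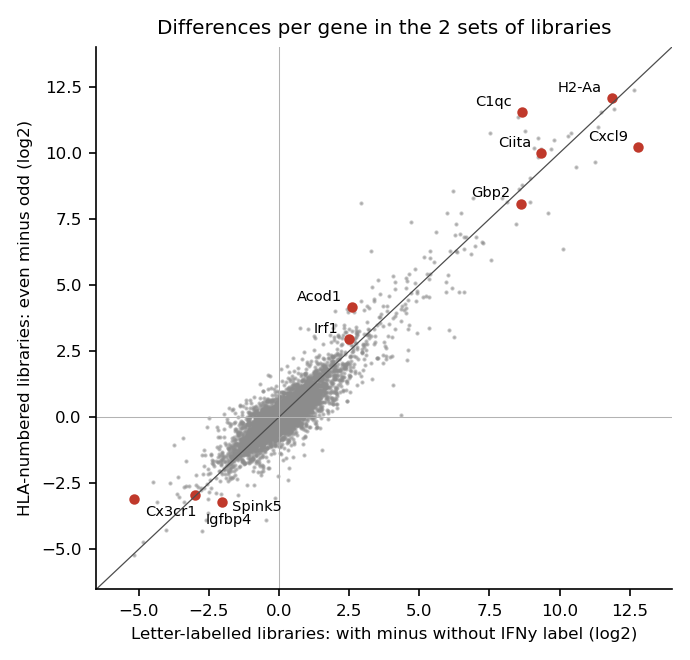
Difference between libraries with and without the IFNy label in the letter set (x axis, log2) against the even-minus-odd difference in the HLA libraries (y axis, log2), 1 point per gene tested in both fits, with 10 named genes in red and the line of equality. Cxcl9, whose fitted difference rests on counts near 0 in 1 set of libraries, lies at the far right.

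The receptor and its signalling arm were described by 18 genes, of which 6 were past 2-fold without overlap, all higher in the even-numbered libraries, and 12 were called higher in the letter libraries. Irf1, a transcription factor induced early in the response, had 88, 141 and 178 CPM in the lowest, median and highest even-numbered library and 13.7, 18 and 19.4 in the odd-numbered ones. The sets did not overlap. In the letter libraries Irf1 rose by 2.48 ± 0.05 (log2, SE; edgeR adjusted p = 1e-23). The ligand-binding receptor chain Ifngr1 overlapped fully, with 24.5 to 33.8 CPM in the even-numbered and 25.9 to 34.5 in the odd-numbered libraries. Batf2, a partner of IRF1, had 11.4 to 22.9 against 1.82 to 3.68 CPM, and Socs3, an inhibitor of cytokine signalling, 5.29 to 19.1 against 2.39 to 5.25 CPM.

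All 11 guanylate-binding proteins and all 9 immunity-related GTPases were higher in the even-numbered libraries past 2-fold, with no overlap. The median difference of the first list was 8.08 on the log2 scale, or 6.28 with the 3 genes that had at most 3 counts in every odd-numbered library set to their lower bounds, and that of the second was 6.46, or 6.42 with 2 such genes. The IFNy median of these lists in the letter libraries was 8.11 and 6.99, or 5.11 and 5.73 with bounds. Reads that map uniquely were counted, so levels of near-identical copies such as Tgtp1 and Tgtp2 are uncertain. All 20 were also called higher in the letter libraries. Gbp4 ran from 99.8 to 430 CPM in the even-numbered libraries and from 0 to 0.452 CPM in the odd-numbered ones. Gbp8 already had 36.7 to 49 CPM without a response and reached 110 to 178 CPM with it. Iigp1, an effector GTPase that coats parasite vacuoles, had 143, 187 and 232 CPM against 0, 0.246 and 0.62. The regulator Irgm1, in turn, went from 42.5 to 62.6 CPM in the odd-numbered to 131 to 237 CPM in the even-numbered libraries. Genes at both ends of the odd-numbered range, near 0 or already above 36 CPM, were thus among those higher.

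Of 11 genes of class II presentation, 10 were past 2-fold without overlap, with a median of 6.30, and 10 were called higher in the letter libraries. H2-Aa, which encodes a class II α chain, had 515, 683 and 812 CPM in the lowest, median and highest even-numbered library and 0, 0.0563 and 1.02 CPM in the odd-numbered ones. With IFNy the letter libraries had 604, 828 and 1282 CPM of H2-Aa, an increase of 11.87 ± 0.12 on the log2 scale (edgeR adjusted p = 6.38e-30). Cd74, the invariant chain that escorts class II molecules, had 3167 to 4452 CPM against 564 to 1017 CPM. H2-DMb1, a peptide loading factor, had 33.4 to 81.9 against 0 to 0.189 CPM. The exception was Ctss, the protease that trims the invariant chain, at 1345 to 2479 against 1079 to 2208 CPM, which overlapped.

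All 16 genes of class I presentation and the immunoproteasome were higher past 2-fold without overlap, with a median of 1.76, and all 16 were called higher in the letter libraries (median 1.56). Their differences were smaller than those of class II and their levels in the odd-numbered libraries were well above 0. Tap1, the peptide transporter, had 191, 229 and 254 CPM against 23.6, 30 and 42.2. Psmb9, a catalytic subunit of the immunoproteasome, had 61, 76.4 and 95.1 CPM against 7.44, 8.37 and 9.91. Nlrc5, the class I transactivator, had 183 to 213 CPM against 49.5 to 93.4, and B2m, the class I light chain, 3037 to 4456 CPM against 1326 to 1891. Tap1 rose in the letter libraries by 2.68 (edgeR adjusted p = 2.47e-28).

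Among chemokines, 9 of 15 tested genes were past 2-fold without overlap, all higher, and 14 were called higher in the letter libraries. Their median difference was 3.06, or 2.27 with the 2 genes at the floor set to their bounds. Cxcl1 was at 0 in every HLA library. Cxcl10, which shares the receptor of Cxcl9, had 2.55, 10.1 and 23.2 CPM in the even-numbered and 0.125, 0.403 and 1.14 CPM in the odd-numbered libraries. Ccl2, which recruits monocytes, had 62 to 177 CPM against 13.7 to 34.3. Ccl5 overlapped, with 1.29 to 27.9 against 0.219 to 2.69 CPM, and so did Ccl3, with 276 to 1581 against 191 to 655 CPM. For Ccl5 the even-numbered libraries within the odd-numbered range were those labelled PE+IFNy, at 1.29 to 1.56 CPM.

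Effectors that use nitrogen, oxygen and metals were partly higher. Of 13 tested genes 6 were past 2-fold without overlap, and 7 were called higher and 2 lower in the letter libraries. Nos2, the inducible nitric oxide synthase, had 78.2, 149 and 268 CPM in the even-numbered libraries and 2.08, 5.49 and 33.6 in the odd-numbered ones. Acod1, which makes itaconate, had 108, 361 and 1207 CPM against 9.15, 20.8 and 34.6. Both sets were apart for each gene, and the odd-numbered library closest to the gap for Nos2 was PBS replicate 6 at 33.6 CPM, where the next highest had 10.5. Cybb, the catalytic NADPH oxidase subunit, had 1084 to 2348 CPM against 317 to 470, and its partner Cyba overlapped at 335 to 473 against 354 to 447 CPM. Ass1, which recycles citrulline to arginine, had 50.9 to 125 against 3.85 to 8.19 CPM, and Arg1 was at or near 0 in every library.

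Type I interferon-stimulated genes were higher in part. Of 20 genes 6 were higher past 2-fold without overlap and none (0) was lower, against 3.12% and 1.31% of all genes. In the letter libraries 13 were called higher and 2 lower, where 14.4% and 11.2% of all tested genes were. The 2 lower genes were thus near the share of all genes. Rsad2, an antiviral enzyme, had 21.3 to 149 CPM in the even-numbered and 4.05 to 15.4 in the odd-numbered libraries, and Zbp1, a nucleic acid sensor, 31 to 119 against 1.02 to 3.86 CPM. Oas2, which activates RNase L, had lower medians in the even-numbered libraries at 25.3 against 56.9 CPM, with overlapping ranges, and fell in the letter libraries by 1.08 on the log2 scale (edgeR adjusted p = 1.96e-16). Ddx58, the RNA sensor RIG-I, had medians of 46.9 and 94.4 CPM and fell by 0.82 in the letter libraries (edgeR adjusted p = 2.01e-13).

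Surface ligands and complement also differed. The costimulator Cd86 had 58.6, 81 and 112 CPM in the lowest, median and highest even-numbered library against 5.17, 7.36 and 10.2 CPM, and the checkpoint ligand Cd274 (PD-L1) 92.7 to 303 against 21 to 33.7 CPM. Cd80, which binds the same receptors as Cd86, overlapped at 3.02 to 4.74 against 3.66 to 8.55 CPM. Of 13 tested Fc receptor and complement genes 7 were higher past 2-fold without overlap. The C1q chain C1qc had 35.6, 77.3 and 101 CPM against 0, 0 and 0.266, and C1qa was at least 175-fold higher. C3, the central complement protein, had 121 to 391 against 7.85 to 16.7 CPM.

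Of the 653 genes in the description, 111 of the 460 higher and 4 of the 193 lower genes stood on the lists used here. Among genes with a mean of at least 10 CPM the 10 with the greatest positive difference included, beside class II and C1q genes, the serine protease inhibitors Serpina3f (at least 514-fold) and Serpina3g (at least 277-fold) and the prothrombinase Fgl2 (at least 359-fold). Ly6a, the stem cell antigen Sca-1, had 75.5, 121 and 159 CPM against 0, 0.0354 and 0.339 CPM. In the negative direction, with the same minimum level, the greatest difference was that of Spink5, a serine protease inhibitor, with 6.75, 9.47 and 11.5 CPM in the even-numbered and 67.7, 83.8 and 141 in the odd-numbered libraries (-3.22 on the log2 scale). Igfbp4, which binds insulin-like growth factors, had 2.1, 4.31 and 6.89 CPM against 16.9, 34.1 and 41, and Tmem176a and Tmem176b had differences of -2.93 and -2.70. With IFNy in the letter libraries Spink5 fell by 2.03 (edgeR adjusted p = 6.8e-18) and Igfbp4 by 2.99 (edgeR adjusted p = 2.23e-21).

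Osteoclast genes, which RAW264.7 cells can express, and cholesterol synthesis genes had a negative median difference and members lower past 2-fold. Ctsk, the bone-degrading cathepsin K, had 7.24, 10 and 20.1 CPM in the even-numbered and 33.5, 50.9 and 64.6 in the odd-numbered libraries, and fell by 2.94 in the letter libraries (edgeR adjusted p = 4.63e-25). It was 1 of 13 tested osteoclast genes lower past 2-fold, while Ocstamp, a fusion protein, was higher at 2.79 to 15.1 against 0.354 to 1.89 CPM. Of 20 cholesterol genes 3 were lower past 2-fold (median -0.53) and 11 were called lower in the letter libraries (median -0.77). The chemokine receptor Cx3cr1, which fell by 5.15 in the letter libraries (edgeR adjusted p = 6.91e-18), overlapped in the HLA libraries at 0.0521 to 3.01 against 0.865 to 15.1 CPM.

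The next question was how the even-numbered libraries differed among themselves by label. The rule did not use the labels within a set, so these differences were tested, with the 24 HLA libraries in 1 edgeR fit. Libraries labelled LE+IFNy and PE+IFNy differed from those labelled LE and PE in 2702 genes, of which 1287 (8.73%) were called higher and 1415 (9.59%) lower with the IFNy label. The median over all genes was 0.01 on the log2 scale. Every tested chemokine and most guanylate-binding proteins, mitosis and DNA replication genes fell, while most ER chaperones and some cholesterol genes rose, with the counts given below for each list.

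All 15 tested chemokines fell, with a median of -1.67. Cxcl9 had 61.7, 54.5 and 123 CPM in the LE, 45.5, 38.7 and 35.3 in the PE, 25.2, 20.4 and 21.1 in the LE+IFNy and 25.6, 12.2 and 14.4 in the PE+IFNy libraries. Cxcl10 had 15.9 to 23.2 CPM in the LE and PE libraries and 2.55 to 4.27 CPM in the LE+IFNy and PE+IFNy libraries. Both genes were thus higher in every library labelled without IFNy than in any labelled with it. Cxcl9 fell by 1.53 ± 0.17 (SE, edgeR adjusted p = 4.34e-08) and Cxcl10 by 2.35 ± 0.16 (edgeR adjusted p = 1.17e-11). Ccl5 fell by 2.44 ± 0.19 (edgeR adjusted p = 1.08e-10).

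Guanylate-binding proteins fell in 7 of 11 and rose in 0 (median -1.22), and of 9 immunity-related GTPases 1 fell, Igtp by 0.64 (edgeR adjusted p = 5.79e-09). Gbp2 had 611, 586 and 557 CPM in the LE, 470, 451 and 366 in the PE, 145, 149 and 125 in the LE+IFNy and 195, 150 and 152 in the PE+IFNy libraries, a decrease of 1.73 ± 0.09 (edgeR adjusted p = 6.31e-14). The letter libraries had, by label, 388 to 448 CPM for LE+IFNy, 263 to 321 for SE+IFNy, 132 to 153 for IFNy and 115 to 122 for PE+IFNy. The 2 levels of Gbp2 in the even-numbered HLA libraries thus had counterparts in the letter libraries, under other labels, and no test of this likeness was made.

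Antigen presentation differed little by label within the even-numbered libraries. No class I or immunoproteasome gene of 16 was called (0 higher, 0 lower, median -0.18), and of 11 class II genes 2 were called lower, H2-DMb1 by 0.61 (edgeR adjusted p = 4.08e-05) and H2-DMb2. H2-Aa had 812, 773 and 685 CPM in the LE, 571, 606 and 515 in the PE, 790, 778 and 681 in the LE+IFNy and 719, 534 and 584 in the PE+IFNy libraries, and the difference was 0.05 ± 0.13 (edgeR adjusted p = 0.796). For Ciita it was 0.01 ± 0.12 (edgeR adjusted p = 0.945). The ranges of both label classes overlapped for H2-Aa.

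**Figure D3:**
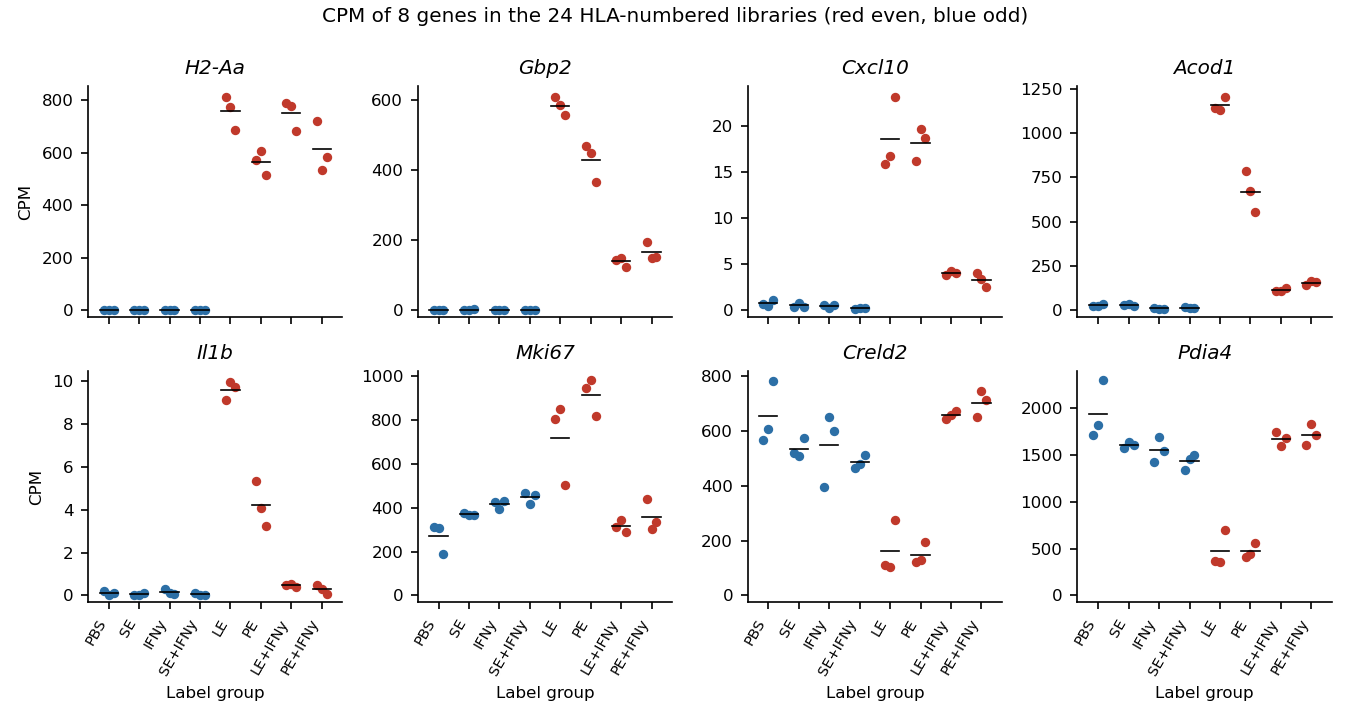
CPM of single genes in each HLA library by label group, 1 point per library with the mean of each label group as a bar and the axes starting at 0. Within the even-numbered libraries Gbp2 lies between 366 and 611 CPM under the labels LE and PE and between 125 and 195 CPM under LE+IFNy and PE+IFNy, while H2-Aa overlaps between them.

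Cytokine genes were among those that fell. Il1b, the cytokine interleukin-1β, had 9.12, 9.97 and 9.72 CPM in the LE, 5.33, 4.06 and 3.25 in the PE, 0.51, 0.521 and 0.408 in the LE+IFNy and 0.486, 0.291 and 0.0662 in the PE+IFNy libraries, a decrease of 4.18 ± 0.30 (edgeR adjusted p = 3.82e-11). Of 17 tested NF-κB and cytokine genes 9 fell and 0 rose, with a median of -0.76, Tnf among them by 1.31 (edgeR adjusted p = 6.92e-13). Il1rn, the interleukin-1 receptor antagonist, had 527 to 954 CPM in the LE and PE libraries and 99.8 to 173 in the others, and fell by 2.51 ± 0.10 (edgeR adjusted p = 1.73e-15). So the inhibitor of interleukin-1 signalling fell with the cytokine.

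Acod1 had 1142, 1132 and 1207 CPM in the LE, 784, 672 and 555 in the PE, 108, 110 and 125 in the LE+IFNy and 144, 166 and 159 in the PE+IFNy libraries. It fell by 2.73 ± 0.12 (edgeR adjusted p = 6.2e-15). By label, letter libraries had Acod1 at 432 to 523 CPM under LE+IFNy and 304 to 417 under SE+IFNy, against 78.2 to 121 under IFNy and 73.9 to 84.2 under PE+IFNy.

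Nos2 fell by 1.40 ± 0.20 (edgeR adjusted p = 3.02e-06), Irf7, the factor that amplifies type I interferon, by 1.59 (edgeR adjusted p = 1.08e-12), and 13 of 20 type I interferon-stimulated genes fell (median -0.71). Of 17 macrophage identity genes 11 fell, Cd36, a lipid scavenger receptor, by 1.12 ± 0.08 (edgeR adjusted p = 4.9e-11) and Adgre1, which encodes F4/80, by 1.19 ± 0.06 (edgeR adjusted p = 1.86e-13). Against this direction, Cd86 rose by 0.61 ± 0.07 (edgeR adjusted p = 8.97e-08), from 58.6 to 73.3 CPM in the LE and PE libraries to 88.8 to 112 CPM in the others.

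Cell cycle genes fell nearly as a whole, in 18 of 20 for mitosis (median -0.97) and 17 of 20 for DNA replication (median -0.93). Mki67, the proliferation marker Ki-67, had 806, 850 and 501 CPM in the LE, 945, 982 and 817 in the PE, 311, 346 and 288 in the LE+IFNy and 440, 301 and 332 in the PE+IFNy libraries. Every library labelled without IFNy was above every one labelled with it, and LE replicate 6 lay well below its group. Mki67 fell by 1.28 ± 0.12 (edgeR adjusted p = 2.13e-09), Top2a, which untangles replicated DNA, by 1.26 (edgeR adjusted p = 2.02e-08) and the ribonucleotide reductase subunit Rrm2 by 1.33 (edgeR adjusted p = 2.81e-08). Mcm2, a subunit of the replicative helicase, was not called, with a difference of -0.01 (edgeR adjusted p = 0.822).

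ER chaperones rose in 12 of 16 and fell in 0, with a median of 1.23. Summed over the 16 genes, the level was 12286 to 34110 CPM in the even-numbered and 25770 to 35937 CPM in the odd-numbered libraries. The median even-minus-odd difference of the list was -0.56 on the log2 scale. Creld2, an ER stress-induced disulfide isomerase, had 112, 105 and 274 CPM in the LE, 122, 131 and 193 in the PE, 643, 659 and 674 in the LE+IFNy and 649, 744 and 711 in the PE+IFNy libraries. It rose by 2.11 ± 0.17 (edgeR adjusted p = 3.2e-10). Its range in the odd-numbered libraries, 396 to 783 CPM, spanned the higher even-numbered level. Pdia4, a disulfide isomerase, rose by 1.84 ± 0.12 (edgeR adjusted p = 6.65e-12) and Hspa5, the chaperone BiP, by 1.03 ± 0.14 (edgeR adjusted p = 6.65e-07). Hspa5 had 3951, 3934 and 7792 CPM in the LE and 4476, 4676 and 6938 in the PE libraries, so replicate 6 stood above replicates 4 and 5 under both labels.

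Cholesterol synthesis rose in 8 of 20 genes and fell in 0 (median 0.51). By fold the rule for named genes picked Avil, an actin-binding protein, which rose by 3.35 ± 0.29 (edgeR adjusted p = 5.64e-10), and among decreases Sdc1, a cell surface proteoglycan, which fell by 2.70 ± 0.14 (edgeR adjusted p = 1.03e-13).

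**Figure D4:**
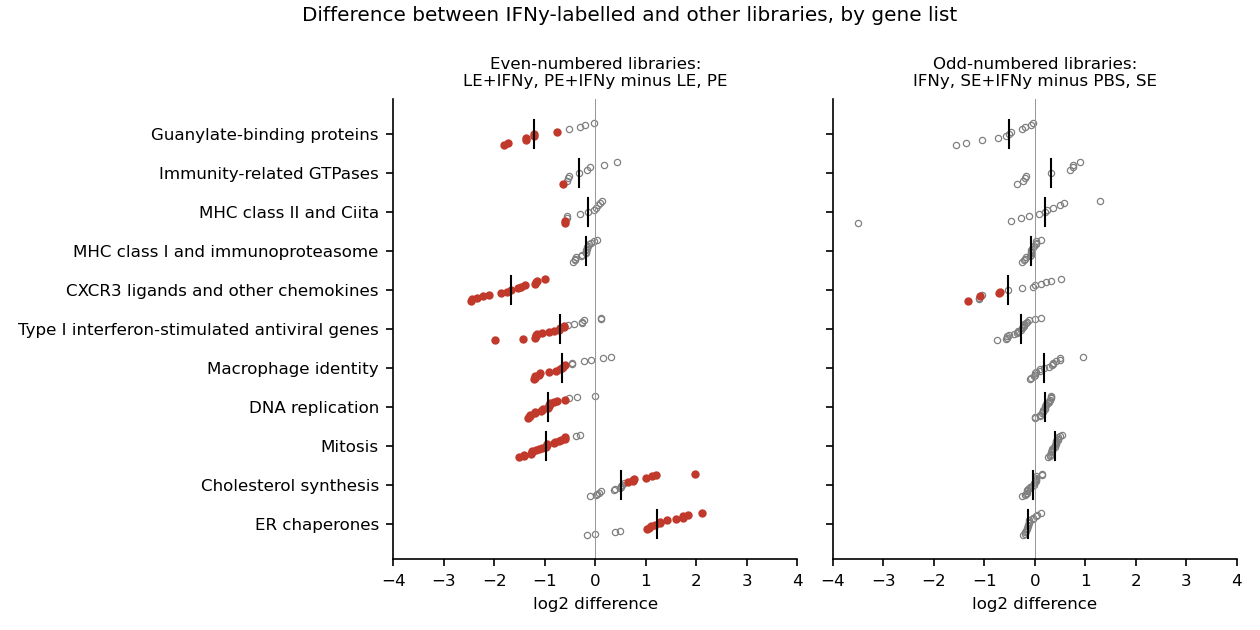
Log2 difference between IFNy-labelled and other libraries for the genes of 11 lists, in 1 panel for the even-numbered and 1 for the odd-numbered HLA libraries. Each point is 1 gene, filled where it was called, and bars are list medians. In the even-numbered libraries 15 of 15 chemokines and 18 of 20 mitosis genes fell and 12 of 16 ER chaperones rose.

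In the odd-numbered libraries the same label comparison, IFNy and SE+IFNy against PBS and SE, called 76 genes, 19 (0.129%) higher and 57 (0.386%) lower, and 2282 genes had an unadjusted p under 0.05. None of the guanylate-binding proteins, immunity-related GTPases, class I or class II genes was called (0). Lcn2, the iron-scavenging lipocalin, had 21.2, 19.5 and 150 CPM in the PBS, 22, 24 and 17.2 in the SE, 10.3, 8.06 and 8.11 in the IFNy and 4.42, 6.18 and 6.47 in the SE+IFNy libraries. All values with the IFNy label were below all without it, and PBS replicate 6 alone was far above. Lcn2 fell by 2.36 ± 0.39 (edgeR adjusted p = 0.00212). Acod1 fell by 1.14 ± 0.13 (edgeR adjusted p = 3.99e-05) and Nos2 by 1.82 ± 0.30 (edgeR adjusted p = 0.00257), both in the same direction as in the even-numbered libraries. Of 15 chemokines 4 fell and 0 rose, and the chemokine receptor Cxcr4 rose by 0.82 ± 0.18 (edgeR adjusted p = 0.0178). Without replicate 5 the count was 1 and none (0) was lower, so that Lcn2, Acod1, Nos2 and Cxcr4 no longer passed, and without replicate 6 it was 46.

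The difference between both label effects was tested in the same fit, with the same libraries. It called 1324 genes (8.98%) higher and 1292 (8.76%) lower, where higher means a more positive label effect in the even-numbered libraries. All 20 mitosis and 18 of 20 DNA replication genes were called lower, and 12 of 16 ER chaperones and 10 of 20 cholesterol genes higher. Mki67 had a difference of -1.74 ± 0.17 (edgeR adjusted p = 1.28e-08) and Creld2 of 2.30 ± 0.24 (edgeR adjusted p = 4.28e-08). For Acod1, which was called in both sets, it was -1.59 ± 0.17 (edgeR adjusted p = 7.73e-08), while for Nos2 it was 0.43 ± 0.37 (edgeR adjusted p = 0.391). Cxcl9, at the floor in odd-numbered libraries, gave no usable difference (edgeR adjusted p = 0.609).

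When the HLA libraries were compared by IFNy label as given, 12 against 12, 256 genes (1.74%) were called higher and 453 (3.07%) lower. Gbp2 was lower with the label by 1.12 (edgeR adjusted p = 1.3e-07). Acod1 was lower by 1.94 (edgeR adjusted p = 1.38e-13). This comparison shares its libraries with both label effects above.

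Between peptide labels the differences were fewer. The comparisons follow the labels, and whether the peptide part of the labels matches the treatments was not tested. In the even-numbered libraries, PE and PE+IFNy against LE and LE+IFNy gave 69 genes (0.468%) higher and 73 (0.495%) lower. Gadd45b, a stress-induced growth regulator, had 129, 111 and 124 CPM in the LE and 56.4, 41.1 and 38.3 in the PE libraries. Its levels were 19, 20.1 and 19.5 CPM in the LE+IFNy and 13.8, 13.8 and 12.7 in the PE+IFNy libraries. Gadd45b was lower under the PE labels by 0.98 ± 0.09 (edgeR adjusted p = 1.41e-07). Angptl2, a secreted angiopoietin-like protein, had 42.5 to 50.2 CPM in the LE and 26.1 to 32.2 CPM in the PE libraries and 37.8 to 39.6 and 19.8 to 21.2 CPM with the IFNy label. It was lower by 0.82 ± 0.07 (edgeR adjusted p = 1.41e-07). Of 15 chemokines 6 were lower, Ccl5 by 1.61 (edgeR adjusted p = 2.19e-05) and Cxcl9 by 0.69 (edgeR adjusted p = 0.0149). Cd33, a sialic acid-binding inhibitory receptor, was higher by 0.76 ± 0.10 (edgeR adjusted p = 3.81e-05). Its levels were 141 to 147 CPM under PE against 53.7 to 102 under LE, and 142 to 160 against 91.9 to 98.3 with the IFNy label. The count fell to 16 without replicate 5, 57 without replicate 6 and 78 without replicate 4.

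In the odd-numbered libraries, SE and SE+IFNy against PBS and IFNy gave 5 genes (0.0339%) higher and 9 (0.061%) lower, with 1751 at an unadjusted p under 0.05. The peptide labels were taken as given here too. Abca1, which exports cholesterol to lipoproteins, had 32.5, 37.8 and 30.6 CPM in the PBS and 55, 58.1 and 49.6 in the SE libraries. Its levels were 36.6, 34.9 and 40.5 CPM in the IFNy and 64.9, 50 and 54.9 in the SE+IFNy libraries. Labels with and without SE did not overlap. Abca1 was higher under the SE labels by 0.66 ± 0.08 (edgeR adjusted p = 8.68e-05). Dner, a Notch ligand, was lower under them by 0.92 ± 0.11 (edgeR adjusted p = 8.68e-05), and the Fc receptor Fcgr3 higher by 0.62 (edgeR adjusted p = 0.00515). Without replicate 5 the count fell to 2 and Dner and Fcgr3 no longer passed. It was 7 without replicate 6 and 25 without replicate 4.

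At equal labels the HLA libraries also differed from the letter libraries. The label groups PBS, SE, LE+IFNy and PE+IFNy were compared, whose IFNy label and response went together in both sets. They gave 5055 genes (33.4%) higher and 3219 (21.3%) lower in the HLA libraries. Levels of response genes could differ under the same label. Gbp2 had 125 to 149 CPM in the HLA and 388 to 448 CPM in the letter libraries labelled LE+IFNy. Under PE+IFNy it had 150 to 195 and 115 to 122 CPM. The median of all genes was 0.07 on the log2 scale. Rn7sk, a short RNA that binds the elongation factor P-TEFb, had 15553 to 22207 CPM in the even-numbered and 15817 to 25328 CPM in the odd-numbered libraries against 1.54 to 13.8 CPM in the letter libraries. Rpph1, the RNA of RNase P, was higher in the same way, with 17738 to 29387 CPM against 0.968 to 11.5. Both are transcribed without a poly(A) tail, while the methods name the same poly(A)-selecting kit for every library. They did not move with the division, as their even-minus-odd differences were 0.01 for Rn7sk and -0.04 for Rpph1. Label set, experiment, sequencing and labels that differ from the treatments cannot be told apart here.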

How the data were processed

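By the study's methods, 48 libraries were made from 200 ng of total RNA with a TruSeq mRNA kit, which selects polyadenylated RNA, and read over 100 bases. The HLA libraries hold high levels of RNAs without a poly(A) tail. The authors counted reads per gene with featureCounts on GRCm38.p5, and the deposited values are whole-number counts for 49568 genes, used without change. The submitters' processing notes also name DESeq2 1.16.1 and R 3.4.1.

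Genes kept by filterByExpr were tested with the quasi-likelihood method of edgeR 4.0.16 after TMM scaling (R 4.3.3), with 8 label groups in each set of 24 libraries or 16 over all 48, Benjamini-Hochberg adjustment over all genes, and calls at an adjusted p under 0.05 and a fold change over 1.5. DESeq2 1.42.0, no count filter, a replicate block and leaving out each replicate were the alternatives. The scripts were tested on simulated data. The members, gene lists and tests were chosen with earlier results of these data known. Genes were named by fixed lists, by the greatest differences without overlap and by the greatest called fold changes at a mean of at least 10 CPM. The even-odd division was not tested, since it rests on the response.

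Chi-square per degree of freedom between HLA libraries was at least 4.97 over 276 pairs, with a median of 13.2 over 24 replicate pairs. No pair thus looked like 1 library read again, and each library was counted as 1 replicate. The check cannot tell whether libraries came from separate cultures. Floors cover counting error only.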

Additional observations from a re-analysis of the deposited data

Results flagged for a closer look

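The effect of the IFNy label differed between the even-numbered and the odd-numbered HLA libraries in 2616 genes, by the test of the difference itself in edgeR. Among the 6 libraries labelled SE, the highest response score, 2.371, stood apart from the others by Dixon's criterion. These 6 pool letter and HLA libraries, which differ in the level of many genes. SE was 1 of 24 groups examined, and chance gives about 1 in 20 for each group. A single flag is thus near what chance gives over all of them.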

How the results depend on the processing

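The 653 genes of the even-odd description became 1113 at 1.5-fold and ranged from 692 to 856 when a replicate was left out. Leaving out a replicate leaves fewer values that must not overlap, which by itself can raise this count. The IFNy label effect in the odd-numbered libraries, 76 genes, became 203 with no filter on low counts and 127 with a replicate block, and ranged from 1 to 65 when a replicate was left out. The SE label effect there, 14 genes, became 70 with no filter, 24 with a replicate block and 29 with DESeq2, and ranged from 2 to 25. The difference of PE against LE, 142 genes, ranged from 16 to 78 when a replicate was left out and was 160 with a replicate block. The cause was not tested. The block changed no other count by over 1.5 times (2718 genes for the label effect in the even-numbered libraries, 2649 for the difference). Of 84 same-numbered pairs of HLA libraries, 42 correlated above 0.1 in their deviations from the group means. The correlations ran from -0.239 to 0.412 with a median of 0.103, so they leaned positive. The main fits did not take the numbers as pairs, and a batch shared by same-numbered libraries was not tested. The other counts stayed within 1.5 times under every alternative run, at 2242 to 2919 for the even-numbered label effect and 2116 to 2703 for the difference. Of 677 alternative values for 94 pairs of a named gene and a comparison, 651 kept direction and side of the threshold, 26 no longer passed it and 0 reversed. Genes under the count filter were not tested, so differences among them were not detectable at this depth.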
